A study of Mus musculus with 4514 samples.

Results

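The cells described here are the most central-like and the most portal-like hepatocytes of 3-day-old mice (P3). The single P3 cells, out of 4514 samples in the series, were ordered by a zonation score. The score is the log2 ratio of the summed level of 5 central marker genes (Glul, Oat, Slc1a2, Cyp2e1 and Cyp1a2) to that of 5 portal marker genes (Cyp2f2, Hal, Sds, Ctsc and Hsd17b6), with 1 added to each sum. Levels are CPM, the counts of a gene scaled to the total of the cell, spike-ins left out. The order was cut into 3 groups of equal size: the 57 cells with the highest scores are called the central end, the 57 cells with the lowest the portal end, and the 58 cells between them the middle. The series follows hepatocytes from late gestation to adulthood. Every group used here came from Alb-Cre; Rosa-tdTomato mice, in which the albumin promoter drives a recombinase in hepatocytes and a red reporter marks the cells, and no group had another treatment. The single cells were picked into lysis buffer and processed by mSTRT-seq, a well-based method in which barcoded cDNA is pooled before the library is made. The groups used beside P3 are single cells of 10 other ages from E17.5 to P30 and 6 poly(A) bulk libraries of P60 hepatocytes sorted by surface protein, 2 each of CD73+ cells (CV), CD324+ cells (PV) and cells with neither protein (ML).

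Blood enters the liver lobule at the portal triads and leaves at the central vein, and hepatocytes along that path carry out different work. Portal hepatocytes are known for urea production, glucose production and secretion of plasma proteins, and central hepatocytes for glutamine synthesis, bile acid synthesis and the oxidation of foreign compounds. Wnt signals from the endothelium of the central vein act through beta-catenin and TCF/LEF factors and hold up the central programme in the adult liver. In the newborn mouse the liver still makes blood, and zonation is known to sharpen after birth.

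The labels name no animal, so the cells of an end were summed into 1 pool, and no difference between the ends at P3 has a replicate or a test. The central, middle and portal pools held 7898347, 9354061 and 8450578 counts, with medians of 137582, 156273 and 146977 counts and 6436, 6808.5 and 6248 genes a cell. Intervals given for pools are exact 95% Poisson intervals and cover counting error only. The scores ran from -2.81 to 12.8. The last cell inside the central end had a score of 5.53 and the first outside it 5.51, and at the portal end these were 2.80 and 2.85. In 12 cells none of the 5 portal score genes had a count, and all 12 lay in the central end, so for them the score is set by the central genes and the added 1.

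The P3 cells were cut into 3 sets along their number in the labels, at the numbers that best split the spike-in share of counts. That there are 3 was fixed beforehand, and the labels do not name the sets as batches. Their difference in spike-in share is therefore how they were cut and no finding. Spike-ins took 2.06 to 4.86% of counts in the first set (37 cells), 0.368 to 2.12% in the second (90 cells) and 0.0317 to 0.126% in the third (45 cells). The sets also differed in named genes. Rpl23a, a ribosomal protein gene, had a median of 687 CPM in the third set and of 7.36 and 5.53 CPM in the first and second, and Cd74, the invariant chain of MHC class II, had a median of 250.9 CPM in the first set and 0 in the others. The central end drew 8, 29 and 20 cells from the first, the second and the third set and the portal end 12, 34 and 11. A ratio over all P3 cells can therefore carry a difference between sets, and the ratios within each set are given beside it.

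**Figure D1:**
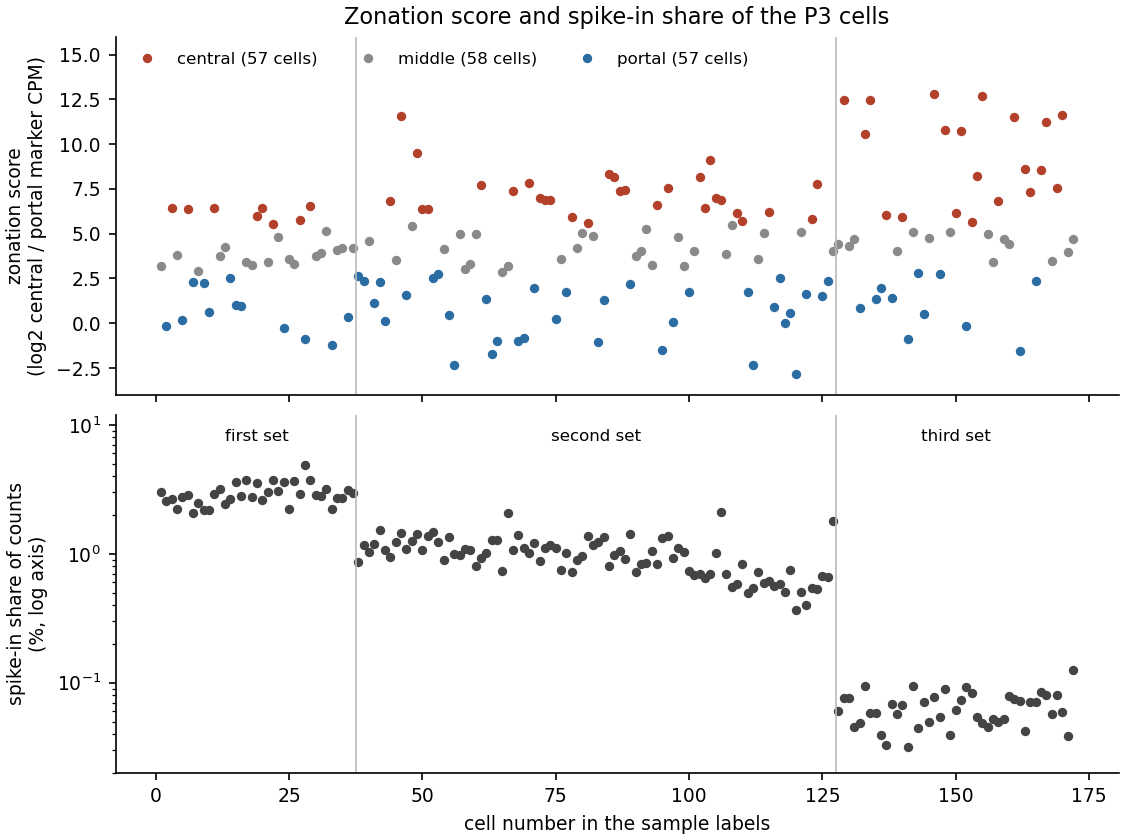
Each point is 1 P3 cell in the order of its label number. The upper panel plots the zonation score (log2), coloured by group, and the lower panel the spike-in share of counts (percent, log axis), with vertical lines between the 3 sets. Every set holds cells of both ends and the middle. The sets were cut by the spike-in share, and its median in them is 2.85%, 0.989% and 0.0602%.

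Both ends had the makeup of hepatocytes. Alb, Apoa1, Ttr, Trf and Serpina1a together took 78323 CPM at the central end and 79455 CPM at the portal end. Of the markers fixed for the ends, Glul and Cyp2e1 summed to 2918 and 582 CPM at the central and portal end and Cyp2f2 and Hal to 12.9 and 161.9 CPM, which is the choice made by the score and no result. Markers of other cells were also counted. The 9 endothelial markers summed to 7.47 and 5.09 CPM and the 9 measured macrophage markers to 56.8 and 63.9 CPM, with 196.7 CPM over the first set against 26.7 and 25.7 CPM over the others. Cholangiocyte markers summed to 1.65 and 19.6 CPM, with Krt19 and Cftr at 0 in all P3 cells, and lymphocyte and neutrophil markers to 7.72 and 17.5 CPM, with Cd3e and Nkg7 at 0. The highest portal cell reached 855 CPM of the former and 876 CPM of the latter. Erythroid markers, mostly globins, summed to 212.3, 871 and 412 CPM in the central, middle and portal pools, and single cells reached 23134 CPM. Stellate markers summed to 25.2 and 11.2 CPM, of which Reln, an extracellular matrix protein, made 22.8 and 9.23 CPM. Reln had counts in 60.5% of P3 cells and is itself 1 of the genes counted below as at least 2-fold higher at the central end. The erythroid marker Hba-a1 is likewise 1 of those counted below as at least 2-fold higher at the portal end. It had 53.8, 211.6 and 120.1 CPM in the central, middle and portal pools, and 1 portal cell reached 2960 CPM. Its log2 ratio was 0.13 among the cells of the first set. The part of other cells in the differences below was not tested.

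The regulatory stretches just before 2 of the genes described below are shown, because TCF/LEF binding sites are the known entry point of the Wnt signal to central genes. They are RefSeq sequence (GRCm38.p6), and end where the annotated gene begins. Lect2, of the central end, is at chr13:56548560-56548788 on the minus strand. Of the 15 most central genes 11 had a promoter to search, and only Lect2 held the TCF/LEF letters, printed in capitals. It was chosen for print because it held them. Aldh1b1, of the portal end, is at chr4:45798772-45799021 on the plus strand and held none.
Lect2: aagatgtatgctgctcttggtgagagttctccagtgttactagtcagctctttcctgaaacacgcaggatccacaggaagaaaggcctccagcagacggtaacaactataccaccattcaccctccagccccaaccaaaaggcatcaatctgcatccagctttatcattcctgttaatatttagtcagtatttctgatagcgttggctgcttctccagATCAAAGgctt
Aldh1b1: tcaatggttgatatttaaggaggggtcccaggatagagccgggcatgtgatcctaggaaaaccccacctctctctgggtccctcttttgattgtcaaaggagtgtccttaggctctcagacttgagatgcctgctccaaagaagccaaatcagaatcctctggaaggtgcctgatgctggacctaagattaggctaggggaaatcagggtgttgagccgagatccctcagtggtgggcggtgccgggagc
The letters searched were CTTTGAT and their reverse complement ATCAAAG over the 250 bases before each start. They were in 1 of 12 promoters matched to 11 of the 15 most central genes, in 0 of 8 promoters matched to 8 of the 15 most portal genes, in 2 of 10 promoters of the score genes (Hal and Slc1a2) and in 3.205% of all 32851 promoters. The letters of a second factor, HNF4 (CAAAGTCCA, either strand), were also searched. They were in 0 of these central, portal and score gene promoters and in 0.3835% of all promoters. A match is a description of letters and not of a site in use.

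Of 5906 genes counted at P3 (at least 10 CPM over all P3 cells, counts in at least 10% of them, score genes left out), 52 were at least 2-fold higher at the central end (0.88%) and 53 at the portal end (0.897%), 1.78% in either direction. The fold is of CPM + 1. At 1.5-fold the shares were 4.86% and 2.96%. The 2-fold shares were 2.22% and 2.71% without the second set of cells, 1.51% and 0.999% without the first and 0.999% and 0.762% without the third. These genes were selected by their size in this same comparison, so their number is given as a description only. Of the 52 central genes, 38 were on the central side within each of the 3 sets, and of the 53 portal genes 42 on the portal side, where over all genes counted 20.4% and 13.6% were. The sets hold the same cells whose pooled ratio chose these genes, so these counts describe the genes and support nothing. With the ends drawn within each set, 36 of the 52 and 46 of the 53 were past 2-fold, and with Hal left out of the score 37 and 33 were.

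The score genes themselves differed widely in level. Cyp2e1, which oxidises ethanol and small drugs, had 2630 CPM at the central end, 1720 in the middle and 473 at the portal end, and every P3 cell of both ends had counts of it. Glul, glutamine synthetase, stood at 287.7 and 109.1 CPM in the central and portal pools. When a gene was left out of the score and the ends were drawn again, its log2 ratio was 1.41 for Glul, 2.03 for Cyp2e1, 2.12 for Oat and 1.98 for Cyp1a2. For the portal genes it was -4.58 for Cyp2f2, -1.56 for Hal, -1.26 for Hsd17b6 and -0.76 for Ctsc. Hal was at -2.75 and Hsd17b6 at -3.98 while they took part in the score. Cyp2f2 had a median of 0 CPM in central cells and 30.2 CPM in portal cells. Slc1a2, at 2.79 and 0.237 CPM in the central and portal pools, and Sds had too few counts for a ratio. Sds had no count at the central end, where 3 counts would be 0.380 CPM, and 2.01 CPM at the portal end.

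Central genes. Rhbg, an ammonia channel of the cell membrane (chr3:88242874-88254739), had 69.3 CPM at the central end (63.6 to 75.3), 43.2 in the middle and 13.1 at the portal end (10.8 to 15.8). Central cells ran from 0 to 361 CPM with a median of 38.1, and portal cells from 0 to 80.1 CPM with a median of 0. The ends overlapped, and 89.5% of central and 49.1% of portal cells had a count. Its log2 ratio was 2.31, with 1.35, 2.99 and 4.16 within the first, the second and the third set. Pcp4l1 was at 67.9 and 14.4 CPM and had a log2 ratio of 2.16.

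Akr1c6, which reduces steroid hormones (chr13:4434311-4457530), was the most abundant of the strongly central genes after Rnase4. Its level was 903 CPM at the central end (882 to 924), 626 in the middle and 226.02 at the portal end. Central cells ran from 116.8 to 2047 CPM with a median of 829, and portal cells from 15.5 to 737 CPM with a median of 148.7, so the median central cell lay above the highest portal cell. The log2 ratio of 1.99 was 2.16, 1.90 and 1.81 within the sets. Gulo, which makes the last step of vitamin C synthesis, was at 650 and 301.9 CPM, and no portal cell (highest 611 CPM) reached the median central cell (619 CPM).

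Some of the named central genes encode secreted proteins. Rnase4, a secreted ribonuclease, was at 1607, 1197 and 550 CPM and Ang, angiogenin, at 556, 471 and 228.3 CPM in the central, middle and portal pools. Both genes share a locus, and how reads common to them were assigned is not given in the sources used here, so their values may not be independent. Lect2, a circulating protein made by hepatocytes and a known beta-catenin target, was at 696, 490 and 237.7 CPM. Its central cells ran from 79.4 to 1897 CPM (median 609) and its portal cells from 0 to 726 CPM (median 175.9). The log2 ratio of 1.55 was 1.79, 1.58 and 1.47 within the sets. Slc1a4, a neutral amino acid transporter, had 1.49, 1.49 and 1.37 within the sets.

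Bile acid synthesis was central at both of its entry enzymes. Cyp7a1, the rate-limiting enzyme of the classical route, had 38.5 CPM at the central end (34.3 to 43.1) and 11.6 at the portal end (9.41 to 14.1), with log2 ratios of 0.79, 2.22 and 0.44 within the sets and 1.65 over all. Cyp27a1, which opens the alternative route, was at 49.4, 42.1 and 17.5 CPM (log2 ratio 1.44, within the sets 1.20, 1.99 and 1.16). Of the 13 counted genes of bile acid synthesis and transport these were the 2 past 2-fold, both central, and the median of the 13 was -0.03. Slco1b2, an uptake transporter, was at 695 and 371 CPM (log2 ratio 0.90), and Baat, which joins bile acids to taurine, lay on the portal side at 30.9 and 58.7 CPM (log2 ratio -0.90). Avpr1a, the vasopressin receptor of hepatocytes, was central at 58.6 and 21.9 CPM.

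Of 16 genes of the Wnt list, 5 were counted at P3, and 2 of these were past 2-fold, both central. Tbx3, a transcription factor downstream of beta-catenin, had 17.7 CPM at the central end (14.9 to 20.9), 11.7 in the middle and 6.39 at the portal end (4.80 to 8.34), and log2 ratios of 2.02, 1.33 and 1.29 within the sets. Rnf43, a ubiquitin ligase that clears Wnt receptors, was at 23.4 and 10.9 CPM (log2 ratio 1.04). Its partner Znrf3 was at 29.1 and 27.8 CPM, Lgr4, a receptor for R-spondins, at 14.8 and 11.6 CPM, and Tcf7l2, the main TCF factor of hepatocytes, at 62.9 and 70.2 CPM. Outside the list, the secreted Wnt antagonist Wif1 was central at 21.3 and 7.93 CPM, and Ctnnbip1, an inhibitor of beta-catenin binding to TCF, portal at 5.82 and 18.7 CPM; both were picked out after their values were seen. Ahr, the dioxin receptor, was central at 31.1 and 12.5 CPM (log2 ratio 1.25).

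Some of the 15 most central genes followed the sets of cells. Saa3, an acute-phase apolipoprotein, had the largest log2 ratio (3.36, 88 against 7.69 CPM), but 26.3% of central cells had a count, 1 reached 2056 CPM, and the ratio within the third set was -3.77. Rpl23a had a log2 ratio of 1.48 over all cells and 0.49, 0.70 and 0.26 within the sets. Gm10499, a gene model, was at -0.51 within the second set, and H2-Aa, an MHC class II chain, at 1.86, 0.69 and -0.78. The other 12 of the 15, Rpl23a among them, had the same side in all 3 sets. H2-Aa had a median of 92.5 CPM in the first set and 0 in the others. Saa3 and Rpl23a belong to families with near copies, and their values are uncertain as to the member.

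**Figure D2:**
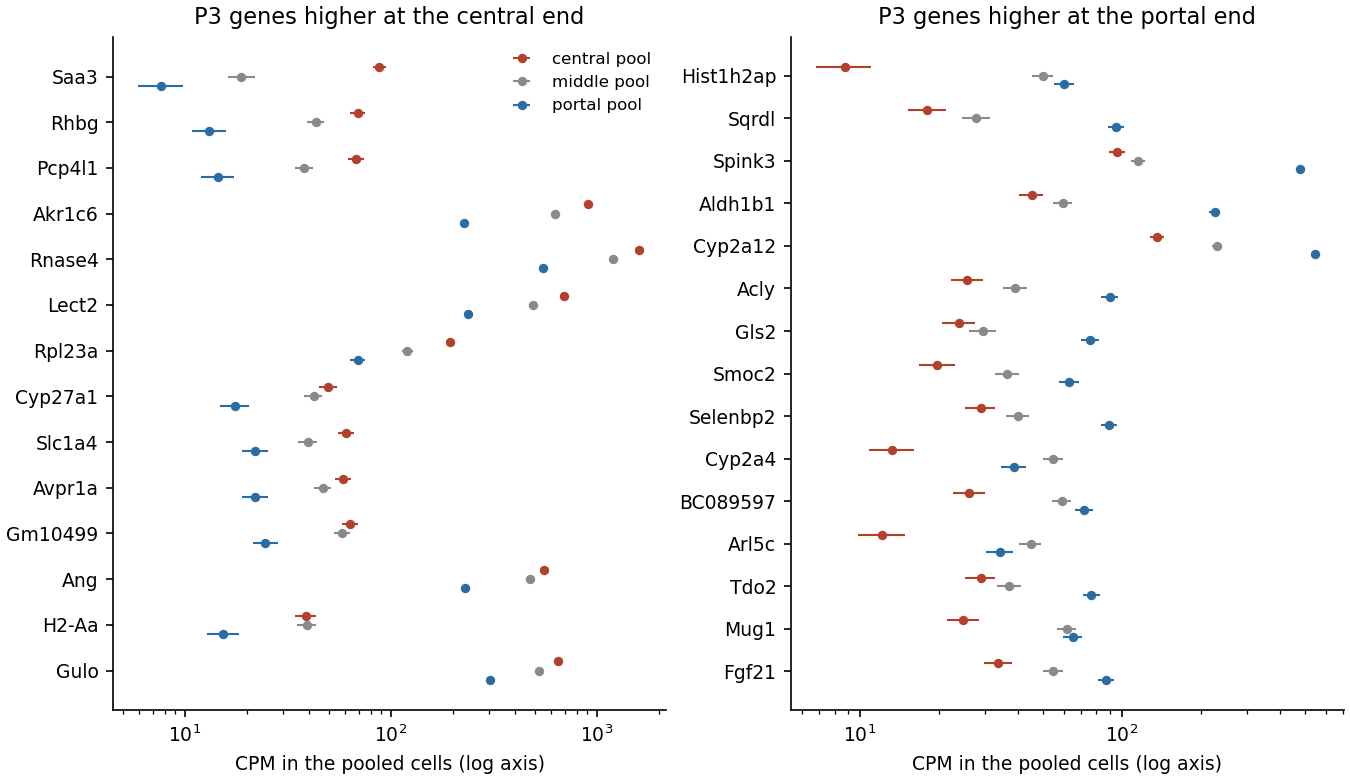
Points are the level (CPM, log axis) of 14 of the 15 most central genes (left) and the 15 most portal genes (right) in the pooled cells of the central end, middle and portal end, with exact 95% Poisson intervals, which are narrower than the point for abundant genes. Rhbg steps down from 69.3 to 43.2 and 13.1 CPM, while Aldh1b1 stays at 45.2 and 59.4 CPM in the central and middle pools and reaches 225.8 CPM at the portal end.

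Portal genes. Aldh1b1, a mitochondrial aldehyde dehydrogenase (chr4:45799022-45804608), had 45.2 CPM at the central end (40.6 to 50.1) and 225.8 at the portal end (215.8 to 236.1). Central cells ran from 0 to 233.7 CPM with a median of 29.1, and portal cells from 0 to 1042 CPM with a median of 167.8. The middle pool, at 59.4 CPM, lay close to the central one. The log2 ratio of -2.30 was -3.17, -2.36 and -1.76 within the sets. Sqrdl, which oxidises sulfide in mitochondria, had the same shape, with 18.1, 27.7 and 94.7 CPM and a log2 ratio of -2.32. Cyp2a12, a bile acid and steroid hydroxylase (chr7:27029090-27036818), was at 136.5, 230.2 and 548 CPM, and its portal cells ran from 27.7 to 1357 CPM (median 492) against 0 to 644 CPM (median 65.4) in central cells.

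Enzymes of nitrogen and acetyl-CoA metabolism were among the named portal genes. Gls2, the liver glutaminase that frees ammonia for the urea cycle (chr10:128194635-128210004), was at 23.9 CPM (20.6 to 27.6), 29.5 and 75.7 CPM in the central, middle and portal pools, with log2 ratios of -2.54, -1.48 and -1.72 within the sets. Arg1, the last enzyme of the urea cycle, was far more abundant, at 593, 777 and 1255 CPM, and its log2 ratio of -1.08 was -1.10, -1.10 and -0.93 within the sets. Acly, which makes cytosolic acetyl-CoA for fatty acid synthesis, was at 25.7, 39.2 and 89.7 CPM (log2 ratio -1.76, within the sets -1.93, -1.77 and -1.65). Tdo2, the first enzyme of tryptophan breakdown, was portal over all cells (28.9 and 76.6 CPM) and at 0.20 within the third set.

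Some of the named portal genes also encode secreted proteins. Spink3, a trypsin inhibitor, was at 95.7 and 478 CPM, with single portal cells up to 3422 CPM and log2 ratios of -3.42, -1.64 and -0.82 within the sets. Igf1, the growth hormone-driven growth factor, was at 133.8 and 310.6 CPM, Apoc3, an inhibitor of lipoprotein clearance, at 294.9 and 633 CPM, and Smoc2, a matrix protein, at 19.8 and 62.8 CPM. Fgf21, a hormone of fasting and suckling, was at 33.7, 54.6 and 87.1 CPM, but the median central cell was at 0 CPM and 1 portal cell reached 921 CPM. Hist1h2ap, a histone gene with many near copies, had the largest portal ratio (log2 -2.65), yet 31.6% of central and 29.8% of portal cells had a count and 1 portal cell reached 5924 CPM.

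Usf1, a transcription factor, was at 171.8 CPM at the central end (162.8 to 181.2), 233.8 in the middle and 348 at the portal end (335.4 to 361). Its central cells ran from 0 to 648 CPM (median 122.8) and its portal cells from 70.04 to 820 CPM (median 354), and the log2 ratio of -1.01 was -1.37, -0.90 and -1.24 within the sets. Usf1, Ahr and Tbx3 were the 3 past 2-fold of the 19 counted hepatocyte transcription factors. Hnf4a, the master regulator of hepatocytes, was at 74.7 and 70.7 CPM.

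**Figure D3:**
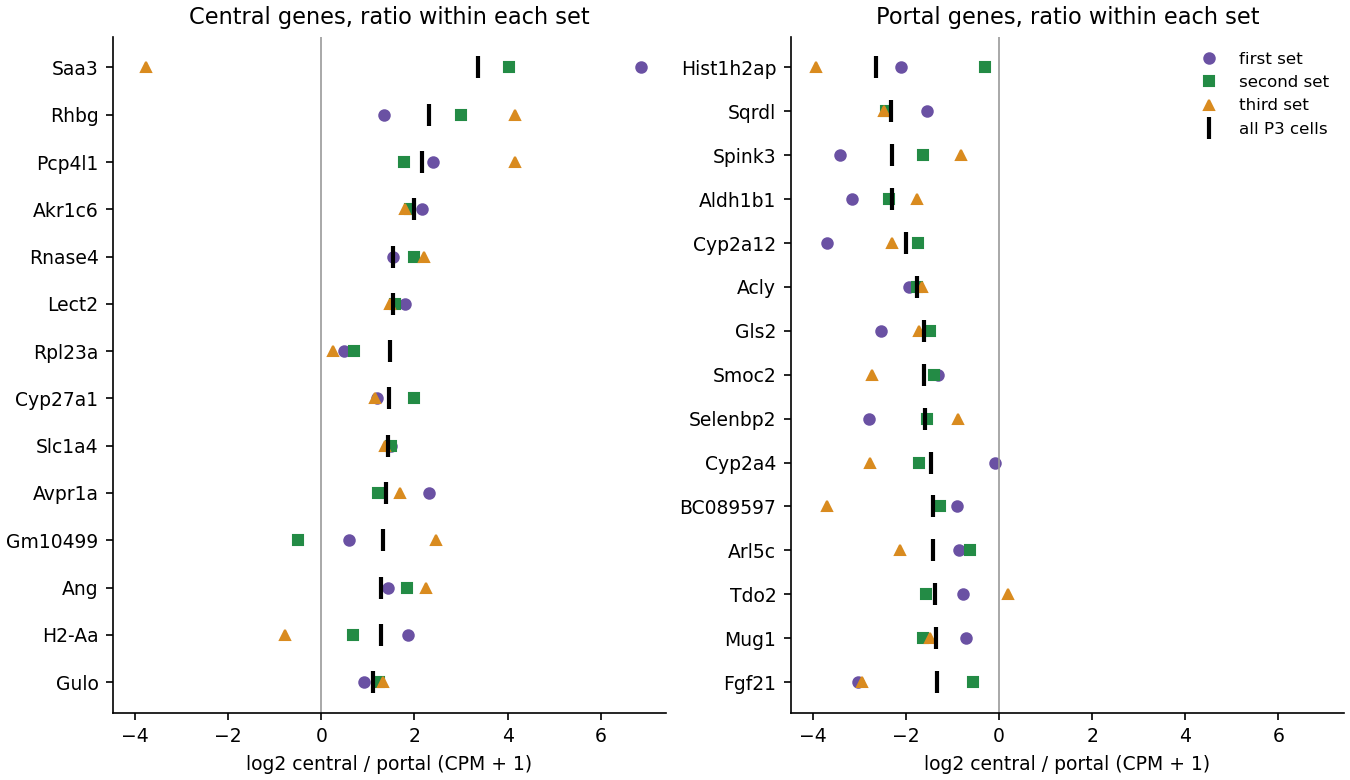
For 14 of the 15 most central (left) and the 15 most portal genes (right), each coloured point is the log2 ratio of central to portal CPM + 1 among the cells of 1 set, and the black bar is the ratio over all P3 cells. Lect2 and Acly have all 3 sets close together, Saa3 spans from 6.86 in the first set to -3.77 in the third, and Rpl23a has its bar outside the 3 sets.

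The gene lists of the adult zones lay mostly on their own side at P3. Of 36 pericentral genes outside the score, 27 were counted, 11 were past 2-fold at the central end and 0 at the portal end, 26 lay on the central side, and the median log2 ratio was 0.88. Over all 5906 genes counted, 3132 lay on the central side and 2774 on the portal side, and the median was 0.03. Csad, an enzyme of taurine synthesis, was at 344 and 146.9 CPM, Rgn, a calcium-binding lactonase, at 862 and 468 CPM and Slc13a3, a dicarboxylate transporter, at 240 and 130 CPM. Cyp2a5, a coumarin hydroxylase with a near copy in Cyp2a4, was at 29.4 and 32.2 CPM, and Gstm1 at 414 and 396 CPM. Of 34 periportal genes 32 were counted, 7 were past 2-fold at the portal end and 0 at the central end, 27 lay on the portal side, and the median was -0.30. The 7 were Aldh1b1, Sdsl, Gls2, Pigr, Igf1, Hsd17b13 and Arg1. Hsd17b13, a lipid droplet enzyme, was at 444 and 993 CPM, while Alb was at 24317 and 23364 CPM.

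In the urea cycle list, Gls2 and Arg1 were the 2 of 10 past 2-fold, both portal. Asl had a log2 ratio of -0.53, and Ass1 was at 344 and 427 CPM and Otc at 377 and 426 CPM, while Cps1, the entry enzyme, was at 512 and 426 CPM with log2 ratios of 0.20, 0.39 and 0.18 within the sets. In gluconeogenesis 1 of 10 was past 2-fold, Sdsl, with a median of -0.34; Pck1, the rate-limiting enzyme, was at 826 and 1011 CPM and G6pc, which releases free glucose, at 484 and 615 CPM. Of 18 cholesterol synthesis genes 17 lay on the portal side and 1, Mvd, was past 2-fold (11.6 and 24.7 CPM), with a median of -0.42, beside 2774 of 5906 on that side over all genes counted. Within all 3 sets, 2 of the 18 were on the portal side, beside 13.6% of all genes counted. In amino acid breakdown 2 of 28 were past 2-fold, Tdo2 and Sdsl.

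Each of the following lists had at most 1 gene past 2-fold. Of 27 counted drug-metabolising enzymes outside the score 0 were past 2-fold (median 0.10), with Cyp2c37 at 340 and 174.5 CPM and Cyp3a11 at 867 and 503 CPM. Among 27 plasma proteins 1 was past 2-fold, Apoc3, and the median was -0.10. In fatty acid oxidation and ketone production 1 of 21 was past 2-fold, Fgf21, on the portal side (median 0.13). All 25 ribosomal protein genes of that list lay on the central side by small amounts (median 0.13, highest 0.32), 17 of them in all 3 sets, beside 3132 of 5906 and 20.4% over all genes counted. Fetal liver genes (0 of 11 past 2-fold, median 0.18) included Afp at 17566 and 13099 CPM. Of 20 respiratory chain genes the 1 past 2-fold, Cox5a, had log2 ratios of 0.06, -0.31 and 0.33 within the sets. Of the 20, 16 lay on the portal side (median -0.10), beside 2774 of 5906 over all genes counted. On the portal side in all 3 sets were 8 of the 20, beside 13.6% of all genes counted. Hypoxia-induced genes (10), the unfolded protein response (18), dissociation genes (8) and iron and heme genes (15) had 0 past 2-fold, and Igfbp1, a hypoxia-induced binding protein, was at 4520 and 2626 CPM. Cell cycle genes had 1 of 12 past 2-fold, the portal Rrm2 (8.86 and 25.6 CPM), and complement and acute phase genes 1 of 11, the portal Orm1 (14.1 and 56 CPM). For both genes the median cell was at 0 CPM at both ends. By the mean over cells Rrm2 was at 14 and 22.6 CPM, under 2-fold. Orm1 reached 810 CPM in 1 portal cell and had a log2 ratio of -0.23 within the second set. The median of the 12 cell cycle genes was 0.11 over all cells and -0.45 with the ends drawn within each set. In all 3 sets 5 of the 12 were portal and 0 central, beside 13.6% and 20.4% of all genes counted.

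The sorted bulk libraries at P60 did not enter the choice of the P3 genes and gave a test of direction in adult cells. CV and PV libraries were compared with edgeR's quasi-likelihood F test (Benjamini-Hochberg adjusted p under 0.05), all 6 libraries in 1 fit. Their totals were 13144208 to 22729462 counts, and the labels do not say whether the 2 libraries of a group came from separate mice, so the p-values rest on the spread between libraries, which may be technical. Of 10984 genes tested, 1653 were higher in CV (15%) and 1528 in PV (13.9%). Among 5768 genes both counted at P3 and tested in bulk, 15.8% were called CV and 20.6% PV. Of the 43 central P3 genes tested, 29 were called CV, 2 PV and 12 neither. Of the 44 portal P3 genes tested, 29 were called PV, 5 CV and 10 neither. Among those on 1 side in all 3 sets, 25 of 33 and 27 of 36 were called in the same direction. The genes of the 2 sorted proteins, Nt5e (CD73) and Cdh1 (CD324), differed in bulk by the sort itself. At P3, Nt5e was at 40.8 and 30.1 CPM at the central and portal end and Cdh1 at 65.3 and 62 CPM.

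Tbx3 and Rhbg were near absent from adult portal cells. Tbx3 had 0.144 and 0.220 CPM in the PV libraries, 1.93 and 0.997 in ML, and 16.8 and 17 CPM in CV (log2 fold change 6.20, SE 0.35, edgeR adjusted p = 1.1e-08). Rhbg had 1.01 and 0.704 CPM in PV, 0.937 and 0.685 in ML, and 26.5 and 28.5 in CV (log2 fold change 4.83, SE 0.22, edgeR adjusted p = 1.6e-09). Both groups of libraries were thus apart, and ML lay with PV for Rhbg. Lect2 had 18.7 and 9.24 CPM in PV, 52.8 and 42.6 in ML and 336.95 and 368 in CV. Gulo went from 64.6 and 46 CPM in PV to 762 and 753 CPM in CV. Akr1c6 had a log2 fold change of 1.53 (SE 0.06, edgeR adjusted p = 2e-10), from 823 and 734 CPM in PV to 2565 and 2669 CPM in CV.

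Several of the named portal enzymes were higher in PV. Aldh1b1 had 32 and 31.5 CPM in PV, 17.4 and 17.3 in ML, and 0.761 and 0.822 in CV (log2 fold change -5.52, SE 0.17, edgeR adjusted p = 4e-11). Gls2 had 244.3 and 260.98 CPM in PV and 18.7 and 12.2 in CV, and its ML libraries, at 214.8 and 235.3 CPM, lay near PV. Acly, at 63.7 and 68.4 CPM in PV and 23.4 and 21.1 in CV, had a log2 fold change of -1.79, beside a log2 ratio of -1.76 at P3. These values are on unlike scales, since edgeR's scaling of library totals (TMM) entered the bulk value and not the P3 ratio. Usf1 fell from 34.6 and 34.9 CPM in PV to 7.84 and 7.47 CPM in CV (log2 fold change -2.40, SE 0.12, edgeR adjusted p = 4.2e-09). Fgf21 and Mug1 were not called (edgeR adjusted p = 0.17 and 0.13), and Saa3, first at the central end at P3, was at 7.49 and 13 CPM in PV and 2.97 and 9.52 CPM in CV (edgeR adjusted p = 0.34).

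Of the genes past 2-fold at P3, 7 were called the other way in bulk: Arl5c, Gstt3, Rarres1, Inmt and H2-Q2 of the portal end and Cox5a and Ndufb6 of the central end. Arl5c, Gstt3 and Rarres1 kept the portal side within all 3 sets. Within the sets Inmt was at -0.32, -0.78 and 0.56 and H2-Q2 at -1.20, 0.63 and 0.62. Cox5a was at 0.06, -0.31 and 0.33 and Ndufb6 at -0.40, -0.09 and 0.19, so their central call rests on differences between sets. In bulk Ndufb6 had 76.1 and 78 CPM in PV and 74.7 and 74.7 in CV. H2-Q2 was low there, with 0 and 0.308 CPM in PV and 1.07 and 1.64 in CV. Gstt3, a glutathione transferase, had 9.37 CPM at the central and 28.2 CPM at the portal end at P3, and 33.7 and 27.3 CPM in PV against 116.9 and 134.1 CPM in CV at P60 (log2 fold change 1.84, SE 0.10, edgeR adjusted p = 1.1e-08). Rarres1 had 24.6 and 50.6 CPM at P3, and 45 and 43.8 CPM in PV against 143.03 and 132.8 CPM in CV. Every CV library lay above every PV library for both genes. Of the lists, 26 of the 27 counted pericentral genes were called CV and 32 of the 32 counted periportal genes PV in bulk; these lists were drawn up with adult zonation known, so this is no independent support. Among genes under 2-fold at P3, Cyp2a5 had a bulk log2 fold change of 5.83 and Alb of -1.79. Cps1, on the central side at P3, had one of -0.64.

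**Figure D4:**
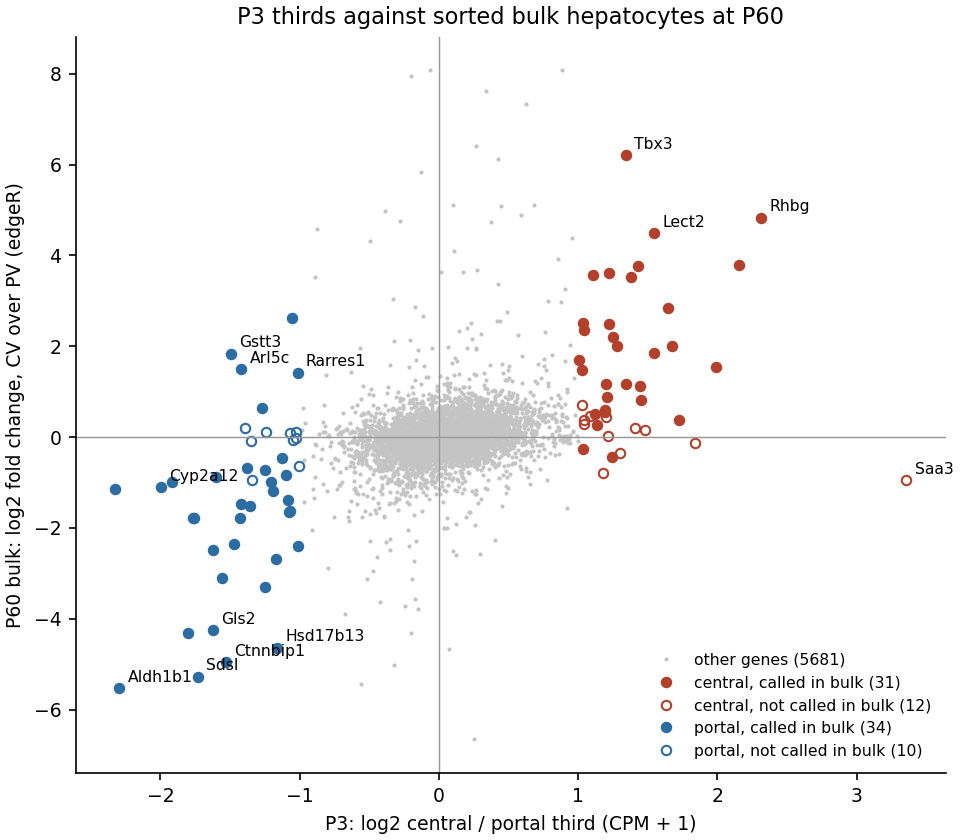
Each point is 1 of 5768 genes, with the log2 ratio of central to portal CPM + 1 at P3 on the horizontal axis and the edgeR log2 fold change of CV over PV at P60 on the vertical axis. Filled red and blue points are genes past 2-fold at P3 that bulk called in either direction, open points those it did not call, and of the filled ones 29 red lie above and 29 blue below 0.

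Ends drawn by the same score at other ages, again 1 pool an end, place P3 in time. The median score was 1.40 at E17.5, 2.60 at P0, 4.07 at P3 and 3.28 at P6. Past 2-fold at P0 were 1.35% of 5783 genes counted on the central side and 1.16% on the portal side, and at P6 4.65% and 1.65% of 6243. Of the P3 central genes counted, 11 of 35 were past 2-fold on the same side at P0 and 25 of 47 at P6, and of the P3 portal genes 9 of 32 and 24 of 45. Lect2 had a log2 ratio of 1.60 at E17.5, 2.05 at P0, 1.55 at P3 and 3.63 at P30, so it was past 2-fold at all of these ages. Tbx3 went from -0.09 at E17.5 over 0.91 at P0 and 1.34 at P3 to 2.88 at P6 and 4.42 at P30. Slc1a4 was at -0.28 at P0 and 1.43 at P3, and Pcp4l1 at 0.24 and 2.16.

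On the portal side Aldh1b1 was at -0.75 at P0, -2.30 at P3, -2.80 at P6 and -5.94 at P30, and Gls2 at -0.52, -1.62, -1.34 and -3.66. Arg1 was at -0.13 at P0 and -1.08 at P3, Spink3 at -0.84 and -2.31, and Acly at -0.84 and -1.76. Cyp2a12 took the other course, with -1.79 at E17.5, -2.81 at P0, -2.00 at P3 and -0.71 at P30, and Sqrdl stood at -2.95 at P0, -2.32 at P3 and -1.14 at P30. Fgf21 was at 0.62 at P0, -1.35 at P3 and -0.35 at P6, and Saa3 at -0.36, 3.36 and -1.06, so neither kept its P3 side at both neighbouring ages. With 1 pool an end and age, differences between ages were not tested, and the score was set at each age anew. The lowest central and highest portal score were 2.18 and 0.504 at E17.5, 3.70 and 1.25 at P0, and 5.53 and 2.80 at P3. At P6 they were 4.16 and 1.84, and at P30 7.13 and -0.947. The ends thus lay at unlike distances in score, and the part of this in the ratios was not tested.

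**Figure D5:**
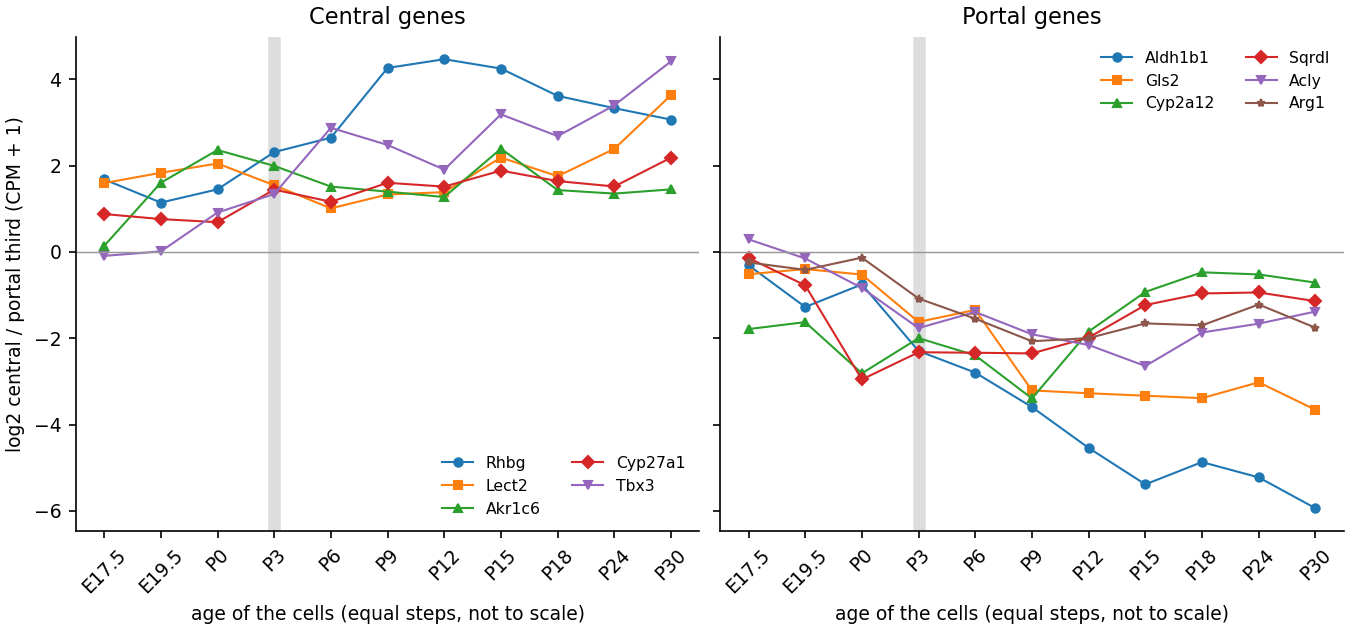
Lines join the log2 ratio of central to portal CPM + 1 (vertical axis) at 11 ages (horizontal axis, equal steps) for 5 central genes (left) and 6 portal genes (right), with P3 shaded. Tbx3 is at -0.09 at E17.5 and 4.42 at P30 and Aldh1b1 at -0.31 and -5.94, while Cyp2a12 and Sqrdl are nearest to 0 at the late ages. The distance in score between the ends differs between ages.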

How the data were processed

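The deposited tables hold whole-number counts per gene for each single cell and bulk library. The submitters' processing notes name TopHat2 2.1.0, HISAT2 2.1.0, UMI-tools 0.5.0, HTSeq 0.6.0 and featureCounts 1.5.3 and 2.0.0 with GRCm38 and mm10; which made which table, and whether strand was used, is not given in the sources used here, so overlapping genes and near copies are uncertain as to the member. From the deposited counts, CPM was computed without the 92 spike-in entries, cells were scored and split into 3 groups of equal size, and counts were summed per group (pandas 2.3.3, numpy 2.4.6). Log2 ratios use CPM + 1. Bulk counts were tested with edgeR 4.0.16 (R 4.3.3; TMM, filterByExpr, two-sided quasi-likelihood F test), with DESeq2 1.42.0 as an alternative. Both steps were tested on simulated data. Bulk replicate numbers were not used as pairs. Of the single-cell columns, 526 P60 columns were not used. No doublet caller was run, since cells were picked singly. Named genes were the 15 largest of each end (at least 30 CPM and counts in 20% of cells, and past 2-fold also by the mean over cells), up to 4 of each list, the score genes and those called the other way in bulk. The members and lists were chosen with earlier results of these data known. A left-out set of cells, and ends drawn within sets, were added after seeing the data. The result of 1 gene is not reported here.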

Additional observations from a re-analysis of the deposited data

Results flagged for a closer look

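Arl5c, Gstt3 and Rarres1 lay on the portal side at P3 within each of the 3 sets of cells. At P60 every CV bulk library lay above every PV bulk library for each of these genes. Their log2 ratios at P3 were -1.42 for Arl5c, -1.4919 for Gstt3 and -1.0147 for Rarres1, and their bulk log2 fold changes 1.5, 1.84 and 1.42. The difference between the ages was not tested, since P3 has 1 pool an end and was measured with another assay. Arl5c had counts in 43.9% of central and 50.9% of portal P3 cells, and at P0 its log2 ratio was 0.74. Its P3 level was highest in the middle pool, with 12.2, 44.8 and 34.2 CPM in the central, middle and portal pools. Single middle and portal cells reached 752 and 519 CPM. In bulk Arl5c was low, at 0.936 and 1.01 CPM in PV and 3.73 and 2.74 CPM in CV.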

How the results depend on the processing

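P3 has 1 pool an end, so its folds carry no replicate check, and low genes move with depth, filter and single cells. The share of genes counted that were past 2-fold on the central side, 0.88% as reported, became 1.57% with ends of 1 in 4 cells each, 1.37% with cells thinned to 73475 counts, 1.51% without the first and 2.22% without the second set of cells, 0.637% of 2197 genes with a filter of 50 CPM, 1.91% of 16343 genes without a filter and 4.86% at 1.5-fold. The portal share, 0.897% as reported, became 2.71% without the second set, 0.774% at 50 CPM, 1.58% without a filter and 2.96% at 1.5-fold. The counts of the other settings stayed within 1.5 times, but the genes differed: of the 52 central and 53 portal genes, 37 and 33 were past 2-fold with Hal out of the score, 39 and 35 with Cyp2e1 out, 37 and 40 with Hsd17b6 out, 37 and 42 by the mean over cells, 46 and 38 without the largest cell of each end and 35 and 38 without the third set. Without the third set, Cox5a (-0.15), Gm10499 (-0.30) and Ndufb6 (-0.41) changed side, as did H2-Q2 without the first set (0.82). H2-Aa changed side with Hal out of the score (-1.92) and Hist1h2ap with Cyp2e1 out (0.054). The cause of these changes was not tested. Slc1a2, which had too few counts for a ratio, was at -0.035 with Hsd17b6 out, and its sign is not read. In bulk, 3181 genes were called, 2145 by DESeq2 and 2295 to 2585 with 1 library left out, and 58 P3 genes had the same direction, 55 by DESeq2 and 53 to 55 with 1 library left out. The bulk numbers do not pair the libraries (correlations of deviations 0.066, 0.10 and 0.12), and with a replicate block 3112 genes were called and 58 had the same direction. Of the named genes' bulk values under these settings, 40 lost their call and 9 gained one. Of the values called in the main fit or the other setting, 0 changed direction. Changes of direction in values called in neither were not counted.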
